A study of Mus musculus with 24 samples.

Results

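Ependymal nuclei were chosen from the deep brain libraries by their RNA. A nucleus entered if it had over 500 and under 7000 detected genes, less than 20% mitochondrial unique molecular identifiers (UMIs, each standing for 1 captured RNA molecule), and at least 10 summed UMIs of Dnah12, Cfap299, Spag17, Tmem212, Hydin and Foxj1 from at least 3 of them. It also had no UMI of the neuronal gene Rbfox3, at most 1 of the oligodendrocyte genes Mog, Mag and Mobp, and at most 1 of the choroid plexus genes Kl, Tmem72 and Kcnj13. The rule found 106 of 124958 deep brain nuclei that passed the limits on genes and mitochondrial UMIs, or 0.0848%.

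Ependymal cells are the ciliated epithelium that lines the ventricles of the brain. Each carries a tuft of motile cilia whose beating moves cerebrospinal fluid along the ventricle wall. A motile cilium is built on a microtubule axoneme, which dynein motors bend, radial spokes and the central pair regulate, and intraflagellar transport assembles. The transcription factors Foxj1 and the Rfx family switch on the genes of this apparatus.

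Single-nucleus RNA was profiled with 10x 5′ chemistry in 24 libraries, a deep brain library and a cortical library from each of 12 mice of the strain B6.Pdgfbtm3Cbet. The 6 mutants were Pdgfb ret/ret, homozygous for an allele of platelet-derived growth factor B that lacks its retention motif, and develop vascular calcifications in the deep brain. The 6 controls were Pdgfb ret/wt heterozygotes, so every mouse carried at least 1 ret allele and no wild type was included. Mice were between 4 months 7 days and 5 months 18 days old, all mutants and controls 1 to 5 were female, and control 6 was male, so sex and that library cannot be told apart. The deep brain dissection took pallidum, thalamus, hypothalamus, midbrain and pons together, and the cortical one took cortex with hippocampus.

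Deep brain libraries held 7715 to 11952 nuclei after filtering, with medians of 3547 to 7314.5 UMIs per nucleus. The ependymal nuclei together held 590478 UMIs, with a median of 4055 per nucleus (range 1089 to 26380) and a median of 2267.5 genes. The 6 selection genes gave a median of 37.5 UMIs per member, from 10 to 338, and 64 members had a UMI of all 6 genes, 28 of 5, 13 of 4 and 1 of 3. Scrublet called none of the members a doublet, against 6977 (5.58%) of all retained deep brain nuclei. The barcodes of 9 of 106 members also occurred in another deep brain library, and none was shared between members. Of all 124958 retained deep brain nuclei, 18038 had a barcode that occurred in more than 1 deep brain library.

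Few nuclei stood close to the limit on marker UMIs, while the exclusions removed more. In all 151 retained nuclei reached the marker limit, and 45 were left out because of neuronal, oligodendrocyte or choroid plexus UMIs (24 had Rbfox3, 20 the oligodendrocyte genes and 1 the choroid plexus genes). A further 10 reached the marker limit but had 7000 genes or more (8 nuclei) or 20% mitochondrial UMIs or more (2 nuclei). Just inside the limit, 6 members had 10 to 12 marker UMIs, and just outside it 9 nuclei had 7 to 9, of which 7 had 3 marker genes.

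Promoters of the leading ependymal genes were read because the factors of the motile cilium program bind known motifs. RefSeq windows (GRCm38.p6, 250 bases before to 50 after the gene start) were searched on both strands for the X-box of the Rfx family (GTTNCC, any 3 bases, then GNAAC) and for the forkhead motif GTAAACA. These 6 stretches are shown 5′ to 3′ on the gene's strand with the motif in capitals, in order of the gene's level in ependymal nuclei.
Hydin: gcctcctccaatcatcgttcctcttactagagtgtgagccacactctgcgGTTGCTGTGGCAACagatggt
Wdr49: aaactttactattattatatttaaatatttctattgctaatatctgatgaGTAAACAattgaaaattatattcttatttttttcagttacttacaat
Cfap61: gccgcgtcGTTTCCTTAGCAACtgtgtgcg
Ak7: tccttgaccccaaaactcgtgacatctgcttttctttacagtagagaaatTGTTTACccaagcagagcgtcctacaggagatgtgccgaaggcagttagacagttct
Cfap43: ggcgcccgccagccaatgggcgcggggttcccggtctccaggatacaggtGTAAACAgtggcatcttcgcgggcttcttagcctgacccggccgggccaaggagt
Ak9: gcccacagGTTTCCAAGGCAACcgcctaac
The X-box of Hydin (chr8:110266906-110266976, plus strand) lay on the opposite strand and began 21 bases before the start. Wdr49 (chr3:75431238-75431334, minus strand) held a forkhead motif 47 bases before the start, Cfap43 (chr19:47837362-47837466, minus strand) held it 55 bases before, and in Ak7 (chr12:105705801-105705907, plus strand) it lay 131 bases before, on the opposite strand. In Cfap61 (chr2:145934768-145934797, plus strand) and Ak9 (chr10:41303915-41303944, plus strand) an X-box began 8 and 11 bases before the start and ran over it. Of the 25 genes that led the ependymal nuclei, defined below by their ratio to other nuclei, 19 had a window, and 3 of these held an X-box (15.8%) and 4 a forkhead motif (21.1%). Of the 100 leading genes 69 had a window, and 8 of these held an X-box (11.6%) and 4 a forkhead motif (5.8%), while of the selection genes 4 had a window, with an X-box in 1 and a forkhead motif in 0. Over all 27025 windows the shares were 0.936% (253) and 4.05% (1095). In the cilia gene lists used below, 12 of 110 windows held the X-box (10.9%) and 4 the forkhead motif (3.64%). These matches are letters in a window and are no measurement of binding.

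The selection genes are given as a description, since they chose the members. Levels are in CPM, the counts of a gene scaled to the same UMI total in every library, of the summed ependymal nuclei of a library. Dnah12, an axonemal dynein heavy chain, ranged from 1379 to 1872 CPM in mutants, with a median of 1736, while control libraries spanned 753 to 1940 around a median of 1581. Cfap299, a cilia-associated protein, ranged from 2327 to 3862 CPM in mutants, with a median of 3106, while control libraries spanned 1054 to 3462 around a median of 2758. The groups overlapped for both genes, and the lowest library of each was a control.

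Spag17, a central pair protein, ranged from 847 to 1066 CPM in mutants, with a median of 987, while control libraries spanned 253 to 1268 around a median of 1002. Hydin, another central pair protein, ranged from 1330 to 1843 CPM in mutants, with a median of 1558, while control libraries spanned 1138 to 1845 around a median of 1423. Tmem212, a membrane protein, ranged from 1296 to 1895 CPM in mutants, with a median of 1556, while control libraries spanned 1259 to 2174 around a median of 1596. The 2 genotypes overlapped for each of these genes. Foxj1, the master regulator of motile cilia, ranged from 215 to 467 CPM in mutants, with a median of 361, while control libraries spanned 126 to 382 around a median of 276.

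Foxj1 was seen in 73 of 106 members (68.9%) with a median of 1 UMI, and in 1.34% of the other retained nuclei. Each of the other 5 selection genes had a UMI in 93 to 104 members. Their share in other nuclei was 0.844% for Dnah12, 2.84% for Cfap299, 0.978% for Spag17, 0.317% for Tmem212 and 1.66% for Hydin, in nuclei whose median was 5254.5 UMIs against 4055 in members. As the rule required these genes, the values describe the choice and do not test the label.

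The genes that led the ependymal nuclei were ranked by the ratio of mean library CPM + 10 over all other retained deep brain nuclei, among genes of at least 100 CPM, and this ranking is a description with no test. Of the leading 25 genes, 5 belonged to the selection rule and 7 to the cilia lists. Dynein heavy chains were prominent: Dnah6 was at 1397 ± 268 CPM (SD, n = 12 libraries) against 2.32 in all other nuclei, and Dnah11 at 1203 ± 187 against 4.74. Dnah6 was 114-fold and Dnah11 82.3-fold higher on the CPM + 10 scale.

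The other leading genes were of several kinds. Ak7 and Ak9, adenylate kinases of motile cilia, were at 884 ± 170 and 863 ± 236 CPM (SD, n = 12). Cfap43 and Cfap61, axonemal proteins, were at 866 ± 215 and 978 ± 287 CPM. Rgs22, a regulator of G protein signaling, was at 1275 ± 304 CPM, and Wdr49, Ccdc162, Ccdc170, Ccdc146, Lrrc36 and Dnah3 were at 639 to 1177 CPM. Pltp, which moves phospholipids between lipoproteins, was at 1536 ± 474 CPM against 44.4 in astrocyte nuclei, 276 in choroid plexus nuclei and 11.3 in all others.

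Cdhr3 and Cdhr4, cadherin-related membrane proteins, were at 822 ± 202 and 641 ± 233 CPM (SD, n = 12). Unc5cl was at 632 ± 396 CPM and had the widest spread among the 25 relative to its mean, from 88.6 to 1644 CPM, both values in controls. The remaining leading genes were 3300002A11Rik at 1461 ± 416 CPM, Gm10714 at 728 ± 303 and C230072F16Rik at 720 ± 120. In the leading 100 genes, 12 were mitochondrial and 27 were in a cilia list.

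**Figure D1:**
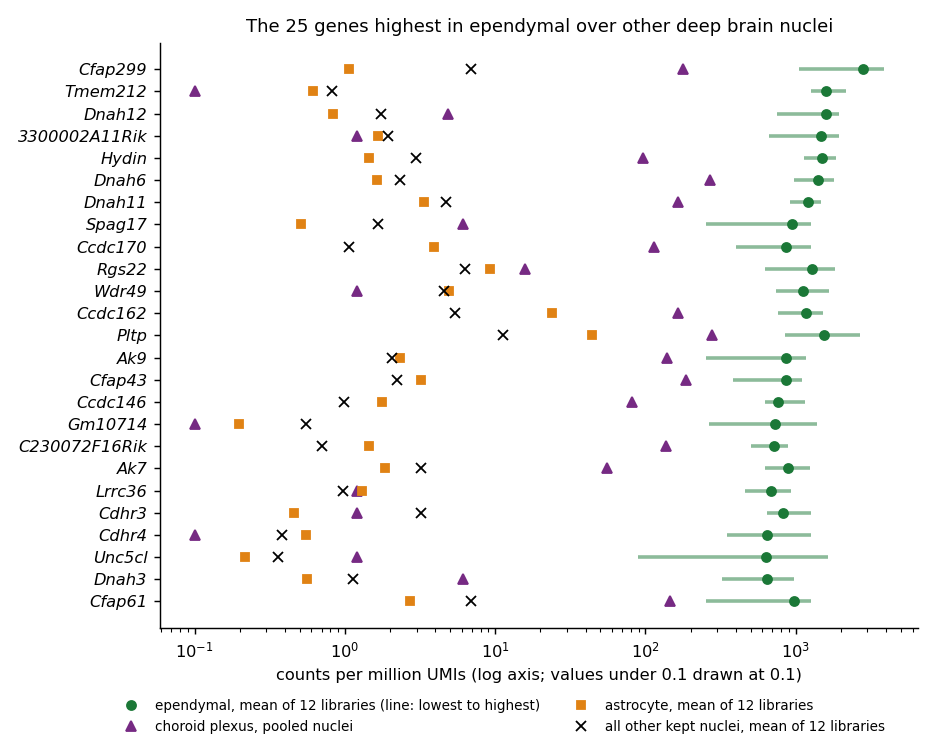
Level of the 25 leading genes in CPM on a log axis, with the mean over 12 libraries and the lowest to highest library (line) for ependymal nuclei, the mean for astrocyte and all other retained nuclei, and the pooled value for choroid plexus nuclei. Values under 0.1 are drawn at 0.1. Unc5cl has the widest relative spread, from 88.6 to 1644 CPM.

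The ciliary apparatus was followed by the role of its parts. In the ependymal nuclei 8935 genes had at least 10 UMIs, and 1922 of them (21.5%) were over 2-fold higher than in all other nuclei on the CPM + 10 scale. Over all 32288 genes in the files, detected or not, 2111 (6.54%) were, and the list counts are also taken over all genes found in the files. Many lists hold a larger part of detected genes than the files do. For such lists the 6.54% is too low a share to set beside them, and the 21.5% of detected genes belongs there too. The counts describe where the members differ and carry no test. As comparison classes served 9558 astrocyte nuclei, which by their definition held at most 1 UMI of the 6 selection genes, and 131 choroid plexus nuclei, which were pooled because libraries had 0 to 34 of them. The choroid plexus nuclei were chosen by UMIs of Kl, Tmem72 and Kcnj13, with no limit on the selection genes. Mutant libraries held 0 to 13 of them and control libraries 3 to 34.

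Axonemal dynein heavy chains, the motor subunits, were over 2-fold higher for 12 of 14 genes, with a median log2 ratio of 4.96 over other nuclei. Dnah9, the outer arm chain, was at 1288 ± 184 CPM (SD, n = 12) against 3.2 in astrocyte and 311 in choroid plexus nuclei. Dnah5, its outer arm partner, was at 736 ± 156 CPM against 4.2 in astrocyte nuclei and 0 in choroid plexus nuclei. Dnah8 and Dnah17, the chains known from sperm, had no UMI in the ependymal nuclei. Dnah7a, Dnah7b and Dnah7c are close copies, and their reads may have been split between them.

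The intermediate and light dynein subunits and docking proteins were over 2-fold higher for 13 of 13 genes found in the files (median log2 ratio 3.44). Armc4, a docking complex protein, was at 623 ± 166 CPM, and Wdr78 and Wdr63, intermediate chains of inner arms, were at 589 ± 232 and 578 ± 150 CPM (SD, n = 12). Cytoplasmic factors that assemble dynein arms were over 2-fold higher for 10 of 13 genes (median log2 ratio 2.42). Lrrc6 and Daw1, both needed for dynein arms, were at 376 ± 107 and 360 ± 109 CPM, and Pih1d3 had no UMI.

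Radial spoke and central pair genes were over 2-fold higher for 19 of 20 members (median log2 ratio 3.96). Spag16, of the central pair, was at 2448 ± 621 CPM against 189 in astrocyte and 1434 in choroid plexus nuclei. Cfap54 was at 1766 ± 520 CPM, Spef2 at 1257 ± 224 and Cfap69 at 1094 ± 172 (SD, n = 12), while Spag6 had no UMI. Nexin-dynein regulatory complex and ruler genes were over 2-fold higher for 8 of 9 members (median log2 ratio 3.69), with Ccdc39, the molecular ruler of the axoneme, at 465 ± 140 CPM and Drc1, of the regulatory complex, at 342 ± 121 CPM.

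Microtubule inner proteins and other axonemal proteins were over 2-fold higher for 33 of 35 genes (median log2 ratio 3.86). Cfap44 was at 1288 ± 248 CPM against 16.0 in astrocyte and 410 in choroid plexus nuclei. Intraflagellar transport genes and their motors, which primary cilia also use, were over 2-fold higher for 23 of 31 members (median log2 ratio 1.68). Kif6, a kinesin, was at 782 ± 147 CPM against 12.3 in astrocyte nuclei, and Dync2h1, the retrograde motor, was at 625 ± 157 against 179. The median log2 ratio over astrocyte nuclei ran from 1.56 for the transport genes to 5.08 for the heavy chains.

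Choroid plexus epithelium, which is also ciliated, lay closer to the ependymal nuclei for these genes. Part of this may be set by the definitions, since astrocyte nuclei had a limit on the selection genes and choroid plexus nuclei had none. The median log2 ratio of ependymal over choroid plexus nuclei was 2.59 for the heavy chains, 2.04 for the other dynein subunits, 1.70 for the radial spokes and central pair and 1.06 for intraflagellar transport. Summed over the heavy chains, libraries ranged from 5938 to 10276 CPM in ependymal nuclei and from 180 to 298 CPM in astrocyte nuclei, and the pooled choroid plexus nuclei stood at 1275 CPM.

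**Figure D2:**
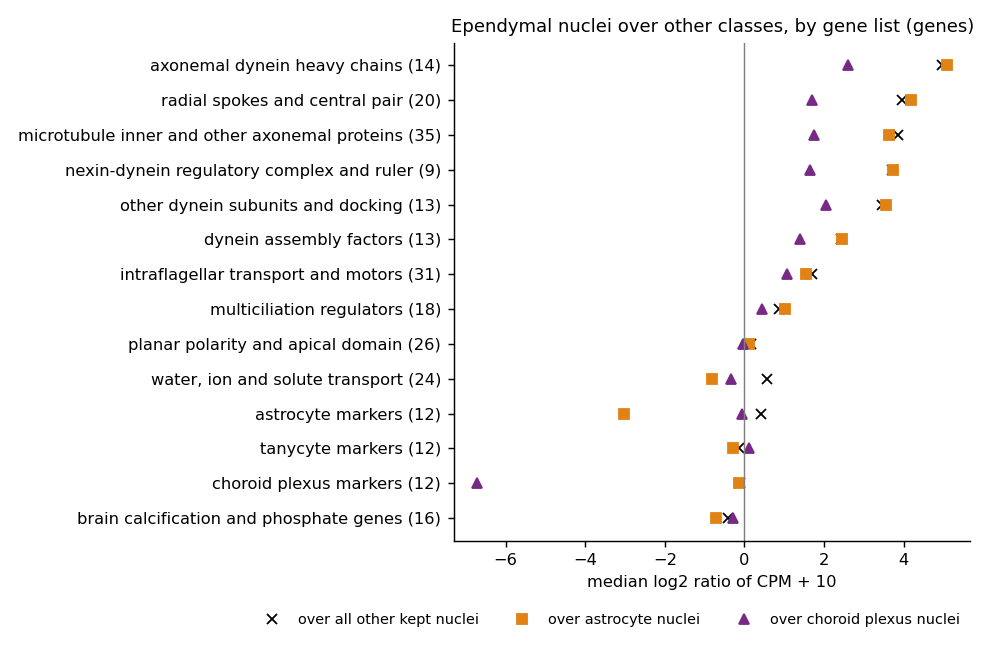
Median log2 ratio of CPM + 10 in ependymal nuclei over all other retained nuclei, astrocyte nuclei and choroid plexus nuclei, by gene list, with the number of genes found in the files in parentheses. The axonemal dynein heavy chains stand at 4.96, 5.08 and 2.59, and the brain calcification and phosphate genes at -0.41, -0.71 and -0.28.

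Regulators of multiciliation were over 2-fold higher for 8 of 18 genes (median log2 ratio 0.87). Rfx3, an X-box binding factor, was at 1215 ± 206 CPM against 470 in astrocyte and 1074 in choroid plexus nuclei, and Rfx2 was at 180 ± 57.1 CPM (SD, n = 12). Myb, which acts in multiciliated progenitors, was at 131 ± 70.5 CPM against 0.3 in astrocyte and 0 in choroid plexus nuclei. Trp73 was at 105 ± 44.1 CPM against 0.1 and 53.4, respectively. Gmnc, an early inducer of the multiciliated fate, went the other way, with 54.4 ± 44.4 CPM in ependymal and 1023 CPM in choroid plexus nuclei. Mcidas, Ccno and Foxn4, further early regulators, had no UMI in the members.

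Planar polarity and apical genes were over 2-fold higher for 8 of 26 members (median log2 ratio 0.16). Celsr1, a planar polarity cadherin, was at 209 ± 97.4 CPM against 10.4 in astrocyte nuclei. Ezr, which links membrane and actin at the apical surface, was at 245 ± 94.6 CPM against 45.1 in astrocyte and 375 in choroid plexus nuclei. Gja1, the gap junction protein connexin 43, was at 380 CPM against 846 in astrocyte nuclei.

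Water, ion and solute transport genes were over 2-fold higher for 8 of 24 members, with a median log2 ratio of 0.58 over other nuclei and -0.82 over astrocyte nuclei. Aqp4, the water channel shared with astrocytes, was at 269 ± 113 CPM in ependymal and 519 CPM in astrocyte nuclei. Aqp4 and Gja1 were among the genes that chose the astrocyte nuclei, so their higher level there was in part set by that choice. Slc4a4, a bicarbonate transporter, was at 491 ± 432 against 4221 CPM. Slc2a1, the glucose transporter GLUT1, was at 457 ± 136 CPM against 99.3 in astrocyte and 60.7 in choroid plexus nuclei.

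Genes of inherited brain calcification and phosphate handling had at least 10 UMIs for 6 of 16 members, and 1 of 16 was over 2-fold higher than in other nuclei, near the 6.54% of all genes (median log2 ratio -0.41). Ank, a pyrophosphate exporter, was at 239 ± 83.6 CPM against 210 in astrocyte nuclei. The phosphate exporter Xpr1 was at 99.0 ± 47.7 CPM against 361, and the phosphate importer Slc20a1 at 108 ± 73.1 against 119 (SD, n = 12). Enpp1, Abcc6 and Phospho1 had no UMI. Of the 7 genes of platelet-derived growth factors and their receptors, 0 were over 2-fold higher than in other nuclei, and Pdgfa, a ligand, was at 35.9 ± 28.4 CPM.

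Genes of growth factor and morphogen signaling were over 2-fold higher for 11 of 33 members, with Bmp6, a bone morphogenetic protein, at 246 ± 170 CPM against 33.8 in astrocyte and 447 in choroid plexus nuclei. Reactive glia genes were higher for 6 of 20 members, of which 7 had at least 10 UMIs, led by the intermediate filament gene Vim at 235 ± 109 CPM against 14.5 in astrocyte nuclei. Immediate early and heat shock genes were higher for 4 of 20 members. Among them the chaperone gene Hsp90aa1 was at 905 ± 308 CPM against 155 and Hsph1 at 388 ± 129 against 49.8 in astrocyte nuclei (SD, n = 12). Interferon response genes were higher for 3 of 30 members (8 with at least 10 UMIs), MHC class I genes for 2 of 14 (4) and iron and oxidative stress genes for 5 of 18 (15). Of the 15 iron and oxidative stress genes with at least 10 UMIs, 4 were higher, against 21.5% of all such genes. Counted in the same way, 5 of 7 reactive glia and 4 of 9 immediate early and heat shock genes were higher. For growth factor and morphogen genes this was 11 of 22, for interferon response genes 3 of 8 and for MHC class I genes 2 of 4.

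Markers of other cell types were counted in each member, since a nucleus can carry free RNA or a second nucleus. Astrocyte markers, of which ependymal cells express some, gave a median of 5.5 UMIs, and 30 members had at least 10. They reached 125 in a member of control 1 with 24782 UMIs in all. Neuron and oligodendrocyte markers gave a median of 2 UMIs each, with at most 11 and 10, in lists that hold Rbfox3 or Mog, Mag and Mobp, which the rule limited, while microglia markers reached at most 3 and mural markers at most 5. Endothelial markers were at 0 in all but 6 members, and 1 member of control 1 with 14027 UMIs in all had 84 of them. Oligodendrocyte precursor markers had at least 10 UMIs in 6 members and reached 76 in a member of mutant 4, which had 17470 UMIs in all and also the most neuron and mural UMIs. Choroid plexus markers had at least 10 UMIs in 2 members and reached 18. Their part in the results below was tested where stated by leaving such nuclei out.

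Markers of tanycytes, the specialized cells of the third ventricle wall, were mixed. Of 12 markers 5, among them Rax, Gpr50 and Fgf10, had no UMI, and 2 were over 2-fold higher than in other nuclei, Scn7a at 76.8 ± 49.6 CPM against 7.04 and Col23a1 at 59.4 ± 30.3 against 16.6 (SD, n = 12). A UMI of a tanycyte marker was present in 59 members, with at most 5 in any. Of 12 choroid plexus markers, 3 were over 2-fold higher than in other nuclei, and the median log2 ratio against choroid plexus nuclei was -6.71. Ttr, the abundant transthyretin of choroid plexus, was at 53.8 ± 79.4 CPM in ependymal, 80.8 in astrocyte and 42653 CPM in choroid plexus nuclei. The rule limited Kl, Tmem72 and Kcnj13, and of the 9 markers outside it 3 were over 2-fold higher than in other nuclei, with a median log2 ratio of -5.40 against choroid plexus nuclei.

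Mitochondrially encoded RNA was a measure that the rule bounded only from above. It made up 6.40 ± 2.25% of the summed ependymal UMIs (SD, n = 12 libraries), from 2.79% to 9.17%, against 0.249 ± 0.0896% in astrocyte nuclei, from 0.116% to 0.411%. The ranges did not overlap. The median member had 5.29%, and 95 of 106 members had over 1%.

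Choroid plexus nuclei pooled over libraries had 1.35% and all other nuclei 0.129% mitochondrial UMIs. By library the choroid plexus share ran from 0.0654% to 8.08%, the latter from 4 nuclei of mutant 4 and within the ependymal range. mt-Co1, a subunit of cytochrome oxidase, was at 13682 ± 4230 CPM in ependymal (SD, n = 12), 474 in astrocyte and 1943 in choroid plexus nuclei. Ribosomal protein genes, another sign of cytoplasmic RNA, took 0.485% of ependymal UMIs against 0.393% in astrocyte nuclei, and the nuclear RNA Malat1 took 2.12% against 3.98% in astrocyte, 1.85% in choroid plexus and 2.24% in all other nuclei. Nuclei just outside the marker limit had a median of 2.55% mitochondrial UMIs and those just inside 4.59%, while nuclei with 1 to 2 marker UMIs had 0.0771%. Whether these transcripts came from the members' own cytoplasm was not tested.

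The mitochondrial share did not separate the genotypes. Mutant libraries ranged from 2.79% to 8.67% (median 6.59%) and control libraries from 3.57% to 9.17% (median 6.36%), with means of 6.30 ± 2.26% and 6.50 ± 2.44% (SD, n = 6 each, two-sided exact permutation test p = 0.881). The difference of -0.201 points turned positive when any of 5 libraries was left out, as 0.00855 points without control 2, 0.124 without mutant 3, 0.324 without control 4, 0.332 without control 6 and 0.502 without mutant 4.

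**Figure D3:**
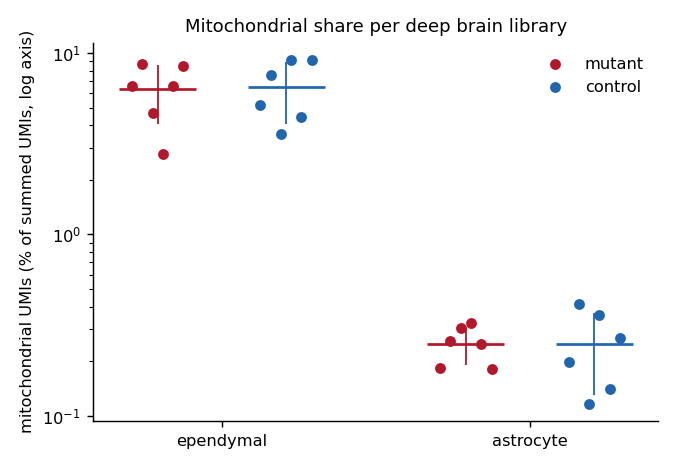
Mitochondrially encoded RNA as a percent of summed UMIs, on a log axis, in ependymal and astrocyte nuclei of each deep brain library (points), with the mean (horizontal bar) and SD (vertical bar) by genotype. Every ependymal point lies between 2.79% and 9.17%, above every astrocyte point, the highest of which is 0.411%.

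Position along the brain was read from transcription factors and other genes of forebrain, midbrain with isthmus, and hindbrain. Forebrain genes had a UMI in 20 members (18.9%), near the 18.2% of astrocyte nuclei, and midbrain or isthmus genes in 21 (19.8%) against 10.5%. Of the 8 midbrain and isthmus genes, 2 reached 10 UMIs, Pax3, which is a dorsal patterning factor, and Lmx1b. En1, En2 and Pax7 had means of at most 2.67 CPM in either genotype, and Pax5, Pax2 and Fgf8 had no UMI. The 19.8% thus rests mainly on Pax3 and Lmx1b and does not place these members in midbrain or isthmus. Only 1 member had both a forebrain and a midbrain or isthmus UMI, and 66 had neither. The members held no hindbrain UMI, which allows a share of up to 2.83% of nuclei with one, against 1.54% (147) of astrocyte nuclei, so a difference was not detectable at this depth. Median depth was 4055 UMIs in members and 3355 in astrocyte nuclei. In mutants 11 members had a forebrain and 9 a midbrain UMI, and in controls 9 and 12 did. Control 2 held 7 of the 12 (of its 11 members), and the other controls had 5 among 36 members.

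The same rule was applied to the cortical libraries to see where ependymal nuclei were recovered. Cortex gave 14 of 79967 nuclei, or 0.0149 ± 0.0220% per library against 0.0855 ± 0.0512% in deep brain (SD, n = 12 mice). The share was higher in the deep brain in 11 of 12 mice, by 0.0706 points (two-sided exact sign-flip permutation test within mice, p = 0.000977). With nuclei thinned to 2000 UMIs the difference was 0.0662 points (p = 0.00146, exact permutation test), from 101 members among 112683 deep brain nuclei and 17 among 39232 cortical nuclei. Nuclei under 2000 UMIs were left out. The exclusion genes were thinned as well, so nuclei that failed an exclusion at full depth could enter, and the thinned members are not the same set.

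The cortical members came from 4 libraries, with 5 in mutant 5, 3 in mutant 6, 5 in control 5 and 1 in control 6. Mice 1 to 4 of both genotypes had no cortical member and 0.0905 ± 0.0566% in deep brain (SD, n = 8 mice). Mice 5 and 6 had 0.0447 ± 0.00204% in cortex and 0.0756 ± 0.0442% in deep brain (SD, n = 4 mice), and 3 of these 4 mice were higher in deep brain. With 4 mice no exact permutation p can go below 0.125. Cortical libraries with no member had medians of 804 to 4597 UMIs per nucleus, while those with members had 6494.5 to 8054, and the part of depth or dissection in the difference was not tested beyond the thinning. Cortical members had a median of 4372.5 UMIs and 5.94% mitochondrial UMIs, and 13 of 14 had over 1%.

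The share of ependymal nuclei answers whether mutants yielded more or fewer of them. Mutants 1 to 6 had 5, 5, 17, 8, 14 and 10 members, and controls 1 to 6 had 17, 11, 5, 4, 8 and 2. Both genotypes thus held libraries with 17 and with 5 members. The share was 0.0921 ± 0.0492% in mutants and 0.0790 ± 0.0569% in controls (SD, n = 6 each), a difference of 0.0132 points that was smaller than the spread (two-sided exact permutation test, p = 0.677, smallest possible p = 0.00216).

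Counting error alone was wide. The 2 members of control 6 gave 0.0176% with an exact 95% Clopper-Pearson interval of 0.00213% to 0.0636%, and the 17 of control 1 gave 0.181% with 0.105% to 0.290%. Such intervals cover counting error only. The difference was -0.00328 points without mutant 3 and -0.00165 points when nuclei were limited to less than 5% mitochondrial UMIs. A share of nuclei can move with the piece dissected as well as with the number of cells, and these cannot be told apart.

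**Figure D4:**
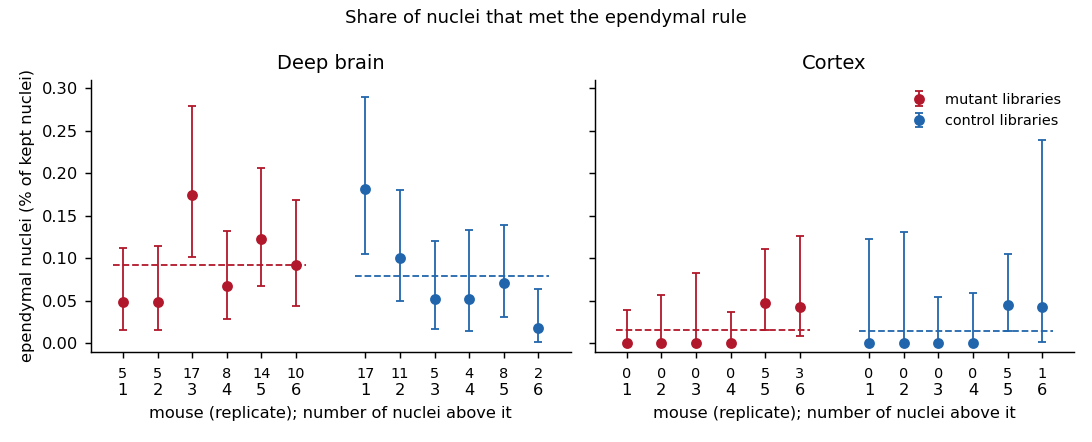
Ependymal nuclei as a percent of retained nuclei in each deep brain and cortical library (points), with exact 95% intervals (bars), the mean of each group (dashed line) and the number of members and the mouse number under each point. Deep brain shares run from 0.0482% to 0.174% in mutants and from 0.0176% to 0.181% in controls, and 8 cortical libraries are at 0.

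Depth per member was compared in the 5 libraries with at least 10 members. The median UMIs per member were 4034, 3926.5 and 4053.5 in mutants 3, 5 and 6, and 4157 and 4098 in controls 1 and 2. Both controls were above all 3 mutants, by 123 UMIs on average, and an exact permutation test of 3 against 2 libraries cannot go below its p of 0.1. Over all 12 libraries the difference, mutant minus control, was -658 UMIs (exact permutation p = 0.755), and it turned to 422 without control 4. Mutants 2 and 4 had medians of 6261 and 5283.5, above controls 1 and 2.

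Genes were then compared between genotypes on counts summed per library. The plan was to give values only if fewer than 3 libraries of a genotype reached 10 members, and 2 control libraries did. A fit over all 12 libraries is therefore given, a choice made after seeing the data, and a fit over the 5 libraries with at least 10 members called 0 of 1624 genes in edgeR (128 at an unadjusted p under 0.05). Of 820 genes tested, 0 passed an adjusted p of 0.05 in edgeR's quasi-likelihood test with Benjamini-Hochberg adjustment (0%). At an unadjusted p under 0.05 there were 30 genes (3.66%), and DESeq2 also called 0, with 34 at an unadjusted p under 0.05. With no filter on low counts, 3 of 14169 genes passed in edgeR (0.0212%), Ecrg4, Zfp804b and Slc6a20a. Ecrg4, which encodes a secreted peptide precursor, had 5, 27, 14, 5, 16 and 13 UMIs in mutants 1 to 6 and 15, 2, 1, 3, 3 and 0 in controls 1 to 6, a log2 change of 1.88 (adjusted p = 0.0213), and control 1 lay within the mutant range. Relative to depth control 5, with 3 of 34143 ependymal UMIs, also lay above mutant 4, with 5 of 60175. All 22 UMIs of Slc6a20a were in mutant 4, and 27 of 32 UMIs of Zfp804b were in controls 1 and 4. In simulated counts for the same 820 genes with 200 changed genes, the test found 146 of 200 changes of 1 on the log2 scale with 2 false calls, and 200 of 200 changes of 2 with 13 false calls. The simulation gave every gene the same variability and changed 200 genes at once, which eases the adjusted threshold. Its counts therefore do not say which changes the real fit could detect. In the real fit Mtus2, at -1.05, had an adjusted p of 0.989 (edgeR's quasi-likelihood test). In bulk sums like these, a change in RNA per nucleus and a change in which ependymal cells were sampled cannot be told apart.

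The ciliary genes had fitted changes near the middle of all tested genes, whose median log2 fold change was 0.01. The 11 heavy chains tested had a median of 0.05, the 12 radial spoke and central pair genes -0.01, the 16 microtubule inner and other axonemal genes 0.02, and the 9 intraflagellar transport genes -0.08. The 5 other dynein subunits tested had a median of 0.26 (5 above 0) and the 4 assembly factors 0.18 (3 above 0). Of all 820 genes tested, 421 were above 0. Every member had at least 10 UMIs of the selection genes, so nuclei with a weaker ciliary program could be left out. These values therefore cannot test whether that program was lost in mutants. The 6 selection genes, which are a description, lay between -0.07 and 0.30, and the 13 mitochondrial genes between -0.44 and 0.24. None of these genes passed the adjusted threshold.

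The 5 genes with the lowest p in each direction are given as values, since none passed (adjusted p = 0.989 for each in edgeR's quasi-likelihood test). Hsp90aa1, the cytosolic heat shock protein 90, was at 848 to 1330 CPM in mutants, with a median of 1149, while control libraries spanned 379 to 1087 around a median of 632. The groups overlapped through controls 4 and 5, at 1087 and 879 CPM. Its log2 change was 0.60 ± 0.22 (SE, unadjusted p = 0.0121 in edgeR), against 0.05 in astrocyte nuclei.

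Mlc1, a membrane protein of astroglia, was at 117 to 644 CPM in mutants, with a median of 430, while control libraries spanned 0 to 362 around a median of 189, a log2 change of 0.96 ± 0.35. Its change in astrocyte nuclei was 0.10. Astrocyte markers summed to 1108 to 3473 CPM in the ependymal nuclei of mutants and to 1314 to 4033 CPM in those of controls. Cobll1 was at 216 to 429 CPM in mutants, with a median of 326, while control libraries spanned 154 to 266 around a median of 213, a log2 change of 0.66 ± 0.24. In astrocyte nuclei Cobll1 changed by 0.80 (adjusted p = 0.00534, edgeR). D430042O09Rik and Ascc1 had log2 changes of 0.67 ± 0.24 and 0.70 ± 0.27.

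On the lower side Cfap54, a central pair protein, was at 1089 to 2012 CPM in mutants, with a median of 1382, while control libraries spanned 1587 to 2959 around a median of 1944, a log2 change of -0.53 ± 0.19. In astrocyte nuclei its change was 0.58 (adjusted p = 0.0470, edgeR), where the mean level was 15.9 CPM. In the 5 libraries with at least 10 members the ependymal change was -0.05 (unadjusted p = 0.843 in edgeR). Lca5l, named for its likeness to the ciliary protein lebercilin, was at 118 to 272 CPM in mutants, with a median of 198, while control libraries spanned 126 to 382 around a median of 331, a log2 change of -0.80 ± 0.24.

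Mtus2, a microtubule-associated protein, was at 38.9 to 332 CPM in mutants, with a median of 181, while control libraries spanned 234 to 652 around a median of 408, a log2 change of -1.05 ± 0.35. Within mice 1 to 3 its change was -2.29 and within mice 4 to 6 it was -0.08. Acss3, an acyl-CoA synthetase, and Aldoa, the glycolytic aldolase, had log2 changes of -0.70 ± 0.24 and -0.62 ± 0.24. For each of these 10 genes the mutant and control ranges overlapped.

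**Figure D5:**
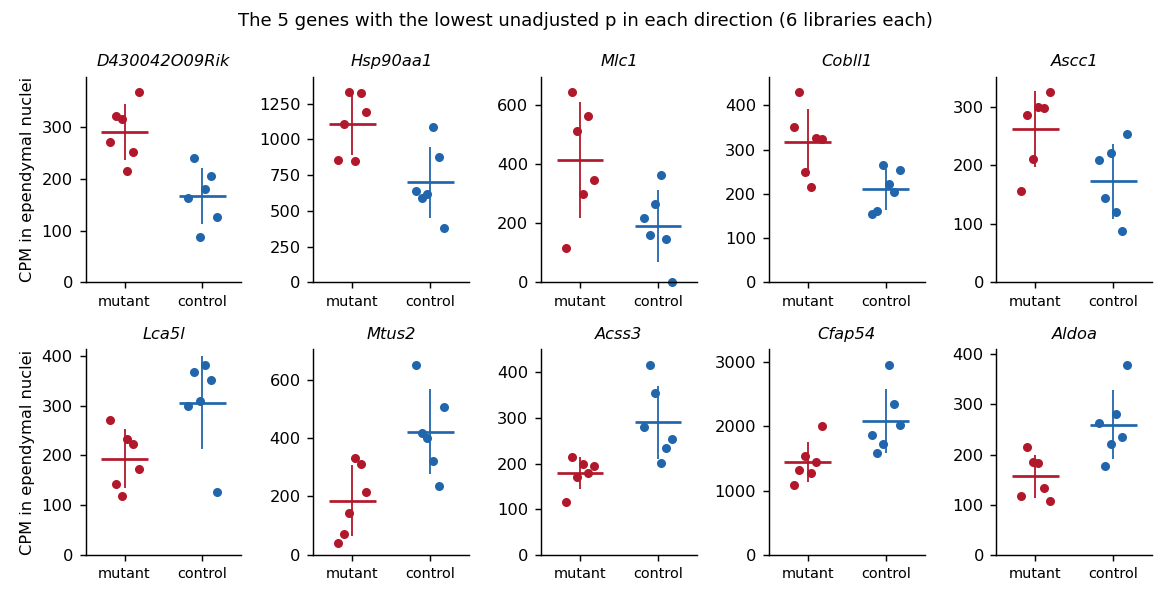
Level in the summed ependymal nuclei of each library (points), in CPM, for the 5 genes with the lowest p in each direction, higher (top) or lower (bottom) in mutants, with the mean (horizontal bar) and SD (vertical bar) of 6 libraries. The groups overlap for all 10 genes, and none passed the adjusted threshold (adjusted p = 0.989, edgeR).

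Whether a genotype difference was particular to ependymal nuclei was tested against astrocyte nuclei of the same libraries, with the library as a block, in the 5 libraries that had at least 10 of both. Of 12812 genes, 4 had an adjusted p under 0.05 (0.0312%) in edgeR's quasi-likelihood test, each with a lower mutant-to-control ratio in ependymal than in astrocyte nuclei, and 530 had an unadjusted p under 0.05. DESeq2 called 0 (255 at an unadjusted p under 0.05), and over all 12 libraries edgeR called 9 of 11991 genes (0.0751%), 3 of them shared with the 4. Ecrg4 (2.35, adjusted p = 0.0360), Kcnh8 (3.41, adjusted p = 0.0360) and Slc6a20a (8.89, adjusted p = 0.0493, all UMIs in mutant 4) were higher, and Zfp804b (-5.18, adjusted p = 9.16e-07), Ano3 (-4.57, adjusted p = 0.0294) and Mtus2 (-1.62, adjusted p = 0.0341) were lower beside Mamdc2, Slco1a4 and Flt1. Controls had 0 Slc6a20a UMIs, so its fitted 8.89 depends on the prior count and is no bound. Kcnh8 had 22 UMIs in mutants and 3 in controls, and Ano3 had 1 and 20. The 12-library fit was not repeated without members rich in endothelial or total UMIs.

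Mamdc2, a secreted matrix protein, had 13, 4 and 3 ependymal UMIs in mutants 3, 5 and 6 and 24 and 14 in controls 1 and 2, or 171, 59.4 and 64.9 CPM against 217 and 224. In astrocyte nuclei it was at 33.2, 25 and 26.6 CPM in the mutants and at 7.71 and 6.75 in the controls, so it was lower in mutants in ependymal and higher in astrocyte nuclei. The difference of log2 changes was -3.12 ± 0.62 (adjusted p = 0.00283, edgeR), and over all 12 libraries it was -2.47 (adjusted p = 0.000572). Without control 1, which leaves 1 control library whose spread is assumed to be that of the others, the adjusted p was 0.163. Without members of over 10000 UMIs it was 0.0827, and in DESeq2 0.170. Sorcs1, a sorting receptor, had 1 UMI in each mutant library and 9 and 16 in the controls, against 58.0, 76.3 and 58.7 CPM in mutant and 35.9 and 56.5 in control astrocyte nuclei, a difference of -3.80 ± 0.81 (adjusted p = 0.00845) that was -2.02 over all 12 libraries (adjusted p = 0.203). Sorcs1 lost its call in edgeR without mutant 3 (adjusted p = 0.0685), mutant 5 (0.184) or control 2 (0.334, with 1 control library left).

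Flt1 and Slco1a4, genes of endothelial cells, rested on 1 nucleus. In these 5 libraries all 22 ependymal UMIs of Flt1 and 22 of 23 of Slco1a4 were in control 1, all of them in the nucleus with 84 endothelial UMIs. The mutants had 0 Flt1 UMIs, so its fitted value depends on the prior count and is no bound. With that nucleus left out, the difference for Flt1 went from -12.03 to -1.97 (adjusted p = 1) and that for Slco1a4 from -6.68 to 3.27 (adjusted p = 1), and 1 gene, Mamdc2, was called (-3.14, adjusted p = 0.00748, edgeR), while Sorcs1 was at -3.60 (adjusted p = 0.0822). The 3.27 rests on 1 Slco1a4 UMI in mutant 3 with 0 left in the controls, so it depends on the prior count. Flt1 then had 0 ependymal UMIs in all 5 libraries, so its -1.97 also depends on the prior count and shows no remaining decrease. Next on the lower side was Pax3, a dorsal patterning factor, at -3.51 (adjusted p = 0.0637), and 21 of its UMIs were in control 2. On the higher side Nrg1, the growth factor neuregulin 1, was at 1.41 (adjusted p = 0.132), and Scg3, Adamts20 and Ptov1 were at 1.81, 1.24 and 2.59 without passing in the 5 libraries. Over all 12 libraries Nrg1 was at 0.94, Scg3 at 0.83 and Ptov1 at 1.09. With 1 library left out Nrg1 ranged from 0.72 (without mutant 6) to 1.78, Scg3 from 1.22 (without control 2) to 3.67 (without control 1) and Ptov1 from 1.79 (without control 2) to 10.38 (without control 1, which leaves a control at 0). Gid4 had 7, 5 and 0 UMIs in the mutants and 0 in both controls, so its fitted 9.51 depends on the prior count and is no bound, and it was 3.96 over all 12 libraries.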

How the data were processed

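Nuclei from deep brain and cortex of 6 Pdgfb ret/ret and 6 Pdgfb ret/wt mice were profiled as 24 libraries. The authors deposited 1 filtered matrix of raw UMI counts per library, made with Cell Ranger 5.0.1 on mm10 with introns counted, with bcl2fastq 2.20.0.422 also in their processing notes. No correction for free RNA is stated in the sources used here. The members and gene lists were chosen with earlier results of these data known.

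Nuclei were filtered as described in the report, using scanpy 1.11.5, pandas 2.3.3, scipy 1.17.1 and numpy 2.4.6 under Python 3.11.15. Scrublet was run per library through scanpy, and its calls were recorded without removing nuclei. Astrocyte nuclei had at least 10 UMIs of Slc1a2, Slc1a3, Aqp4, Gja1, Aldh1l1 and Gjb6 from at least 3 genes, with the same exclusions. Choroid plexus nuclei were chosen by UMIs of Kl, Tmem72 and Kcnj13, with the same limits on Rbfox3 and the oligodendrocyte genes. Counts were summed per library and class and tested with edgeR 4.0.16 (R 4.3.3, limma 3.58.1) using filterByExpr, TMM, the quasi-likelihood test and Benjamini-Hochberg adjustment over all genes tested, at a threshold of 0.05. DESeq2 1.42.0 was an alternative. Shares were compared over mice with exact permutation tests. The scripts were tested on simulated data. Each library is 1 mouse, and depth was 7907 to 110467 summed ependymal UMIs per library.

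Genes named were the selection genes, the 25 leading genes by ratio, up to 4 genes per list by level with any past the threshold, the 5 lowest p values per direction where fewer than 5 passed, up to 5 per direction for class by genotype, and up to 6 promoters by level. Replicate numbers were not treated as pairs between genotypes. Alternatives covered normalization, filters, depth limits, blocks and leaving out each library. Shares, mitochondrial shares, levels and list sums used all 12 deep brain libraries. The comparison of depth and the class by genotype test used the 5 libraries with at least 10 members.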

Additional observations from a re-analysis of the deposited data

Results flagged for a closer look

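In 58 groups of 6 libraries that were looked at, 5 had a library far from the others, and chance does this in about 1 in 20 groups. Astrocyte markers summed to 3473 CPM in the ependymal nuclei of mutant 4, against 1108 to 1620 in the other mutants, while controls reached 4033 CPM. Oligodendrocyte precursor markers summed to 2077 CPM in the same library, against 215 to 778 in the other mutants. Endothelial markers summed to 769 CPM in control 1, against 0 to 29.3 in the other controls.

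The 4 members of control 4 had a median of 10526 UMIs, and the other controls had medians of 3953.5 to 4157. Lca5l was at 126 CPM in control 6, which had 2 members, and at 299 to 382 CPM in the other controls.

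The difference in genotype change between ependymal and astrocyte nuclei passed the adjusted threshold (edgeR's quasi-likelihood test, 5 libraries) for Flt1 (-12.03 on the log2 scale), Slco1a4 (-6.68), Sorcs1 (-3.80) and Mamdc2 (-3.12). For Flt1 and Slco1a4 this rested on the single nucleus described in the report. DESeq2 called 0 genes. In edgeR over all 12 libraries Mamdc2 was called and Sorcs1 was not (adjusted p = 0.203). Without members over 10000 UMIs Mamdc2 was not called (adjusted p = 0.0827, edgeR).

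The matrices also held a reporter feature, EGFP_GENSAT, that the comparisons did not use. It had 168 UMIs in deep brain and 105 in cortical libraries, with UMIs in both libraries of 9 mice (4 mutants and 5 controls) and in neither library of 3 mice. Ependymal nuclei had 0 of these UMIs and deep brain astrocyte nuclei 34.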

How the results depend on the processing

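The share of ependymal nuclei stayed within the spread between mice in every alternative tried (p of 0.238 to 0.994 over both kinds). Leaving out 1 library gave differences of -0.00328 to 0.0336 points, the lowest without mutant 3 and the highest without control 1, and 12 other settings gave -0.00165 (less than 5% mitochondrial UMIs) to 0.0208. The replicate block gave 0.0132 points with p = 0.688 and a block of mice matched by age p = 0.781 (exact permutation). The mitochondrial difference ranged from -0.787 to 0.502 points with 1 library left out. Deep brain stayed above cortex in all 14 alternatives (0.0606 to 0.127 points). Median UMIs per member differed by -658 over all 12 libraries (p = 0.755, and 0.656 with the replicate block, exact permutation), and by -1017 to 422 with 1 library left out, the highest without control 4, whose 4 members set the direction. In the genotype fit 0 genes were called in 22 of 23 alternatives, including the replicate block (22 genes at an unadjusted p under 0.05) and each library left out. The exception was no filter on low counts, with 3 of 14169: Ecrg4 (1.88), Zfp804b (-3.50) and Slc6a20a (4.87, all 22 UMIs in mutant 4), each with an adjusted p of 0.0213 in edgeR. With controls at 0 UMIs of Slc6a20a, the 4.87 depends on the prior count. For class by genotype the calls were 0 with DESeq2, 3 to 18 with 1 library left out (18 without control 2; leaving out a control leaves 1 control library, assumed to vary like the others), 9 over all 12 libraries, 1 without the nucleus rich in endothelial UMIs and 2 without members over 10000 UMIs. With 1 library left out Slco1a4 ranged from -12.11 to 3.62 and Pax3 from -5.09 to 5.83. Slco1a4 went to 3.62 without control 1, 3.27 without that nucleus and 3.27 without members over 10000 UMIs. These 3 values rest on 1 UMI in mutant 3 with controls at 0, so they depend on the prior count and show no reversal. Pax3 went to 5.83 without control 2, which holds 21 of its 25 UMIs and leaves 1 control at 0, so this value depends on the prior count. Several alternatives were chosen after seeing the data: the 12-library fits and the depth over 12 libraries, the sets of libraries, leaving out members by endothelial or total UMIs, and no upper limit on genes. Same-numbered mice correlated across genes at r of -0.295 to 0.145 in ependymal sums (2 of 6 pairs over 0.1) and -0.206 to 0.536 in all other nuclei (4 of 6). Mice 1 to 4 of both genotypes share ages by the labels, as do mutant 5 with control 6 and mutant 6 with control 5. The correlations of same-numbered mice therefore cross ages for mice 5 and 6. The labels name no shared litter or batch, and since not every pair was over 0.1 the numbers were not taken as pairs. A replicate block could not be fitted for the 5 libraries, and the hindbrain share was 0 throughout and was not tested. With 2 to 17 members per library, 820 genes could be tested.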
